A study of Homo sapiens with 6 samples.

Results

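The genes described here are the cancer-testis genes of the MAGE-A, MAGE-B, MAGE-C, GAGE, PAGE, XAGE, SSX, CTAG and PRAME families. They were chosen by their symbols alone, and 79 of the 19571 genes in the deposited expression table carried such a symbol. The symbol rule also takes 9 CTAGE genes, whose name begins with the same letters but which belong to another family, and 14 PRAMEF genes, the PRAME family members of a cluster on chromosome 1. LNCaP is a human prostate cancer cell line. Stable lines carrying Flag-tagged KDM4B, a demethylase that removes methyl groups from lysine 9 of histone H3, were compared with lines carrying the plenti6 control plasmid. There were 3 libraries in each of the 2 groups, numbered 1, 2 and 4 for KDM4B and 1, 2 and 3 for the vector, and all cells had spent 3 days in RPMI with 10% of the serum abbreviated CFBS before harvest. The titles of all KDM4B libraries share a tag that no vector library carries. Its meaning is not given, and it cannot be told apart from the construct. The labels do not say whether a line was 1 clone or a pool, or whether replicates were separate cultures, so p-values measure only the spread between these libraries, which may be technical.

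Cancer-testis genes are normally transcribed in germ cells of the testis and silent in adult somatic tissue, and many are switched on in tumours. Their promoters are commonly kept silent by DNA methylation, together with methylation of histone H3 at lysine 9, the mark that KDM4 enzymes remove. MAGE proteins bind RING-type ubiquitin ligases and direct them to substrates, PRAME is a substrate receptor of a cullin ligase, and SSX proteins bind repressive chromatin. NY-ESO-1, encoded by CTAG1 genes, and several MAGE-A proteins are targets of cancer immunotherapy. Of the 70 genes found in the RefSeq gene table, 46 lie on chromosome X and 14 on chromosome 1.

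Libraries of the first group are called KDM4B-labelled and those of the second vector controls. Levels are FPKM, fragment counts scaled to transcript length and to the size of the library, as the authors deposited them. The FPKM sum was between 443072.2 and 450157.1 in the KDM4B-labelled libraries and between 473046.9 and 479913.4 in the vector controls. Ribosomal RNA genes took 8.14% to 10.5% of that sum in the first group and 0.144% to 0.473% in the second, with the highest vector share in replicate 1. KDM4B itself measured 26.33, 27.17 and 25.76 FPKM in the KDM4B-labelled libraries and 24.73, 25.15 and 25.28 FPKM in the vector controls, and its log2 fold change of 0.07 (SE 0.04) missed the threshold (limma, adjusted p = 0.113). After scaling, explained below for the members, it was 0.29 (adjusted p = 2.86e-05). KDM4B as listed was thus little higher where the label says overexpression. Whether the listed value counts transcripts of the Flag-tagged transgene is not known, so it does not settle how much KDM4B the cells made, and the group is named by its label throughout. All 7 luminal prostate markers were expressed in both groups, but their sum was 1279.83 to 1343.14 FPKM in the KDM4B-labelled libraries and 3474.05 to 3602.52 FPKM in the vector controls. Of these, 5 were called lower, with KLK3 (prostate-specific antigen) at 441 ± 41.2 against 2212 ± 49.4 FPKM and KRT8 at 236 ± 2.34 against 301 ± 4.69 FPKM, while HOXB13 was called higher at 214 ± 4.46 against 165 ± 11.3 FPKM (SD, n = 3 each; limma, adjusted p = 2.22e-05). Of 10 testis germ cell markers 4 were in the table, and they summed to 0.11 to 0.18 FPKM in the KDM4B-labelled libraries and 0.27 to 0.36 FPKM in the vector controls. What part this shift in luminal markers has in the values below was not tested.

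LNCaP cells of both groups held high levels of a few of these genes and almost none of the others. Of the 79 genes, 30 had a mean of at least 1 FPKM over the 6 libraries, 18 lay between 0.1 and 1 FPKM and 31 were lower. GAGE12G, a GAGE antigen gene, was the highest, followed by GAGE2D, MAGEA3, CTAG1A and MAGEA6. All 7 MAGE-B genes had a mean under 0.1 FPKM, and so did MAGEA11, a MAGE-A gene, and PAGE4, a prostate-associated antigen, each at 0.09 FPKM or less in every library. In all, the 79 genes summed to 1051 ± 30.6 FPKM in the KDM4B-labelled libraries and 1189 ± 25.4 FPKM in the vector controls (SD, n = 3 each).

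In 20 of the 79 genes every KDM4B-labelled value lay above every control value, and in 11 below, where 13.1% and 42.9% of all genes did. Among the 30 genes with a mean of at least 1 FPKM these counts were 8 and 9 (14.6% and 61.7% of all genes at that level). Among the 18 between 0.1 and 1 FPKM they were 10 and 1 (17.8% and 23.4%), where 8 of the 10 were PRAMEF genes. These 8 and the read-through MAGEA10-MAGEA5 reached that level only through the KDM4B-labelled libraries, as PRAMEF1 and PRAMEF12 reached 1 FPKM. Their place in the counts of both levels supports nothing.

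Expression was compared for the 30 genes with a mean of at least 1 FPKM, on log2(FPKM + 1) with limma and Benjamini-Hochberg adjustment over 12148 genes. Of these, 9 were higher and 9 lower in the KDM4B-labelled libraries, where 13.4% and 60.3% of all tested genes were called higher and lower. The median log2 fold change was -0.04 for the 30 genes and -0.22 for all tested genes. Dividing each library by its median of ratios to the other libraries moved the median of all genes to -0.01 and that of the 30 genes to 0.17, with 14 called higher and 5 lower (32.5% and 35.5% of all genes). At least 2-fold and called were 3 higher (PRAMEF12, PRAMEF1 and MAGEA4) and 3 lower (CTAGE5, GAGE2B and GAGE6), against 1.25% and 3.42% of all tested genes. PRAMEF12 and PRAMEF1, counted here and in the 9 and 14 called higher, passed the filter only through the KDM4B-labelled libraries. Their calls support nothing. With the filter lowered to a mean of 0.1 FPKM, 19 of 48 genes were called higher and 9 lower (13.5% and 51.9% of all genes), and with scaling as well 25 and 5 (29.7% and 30.8%). Of the 19 higher genes 10 were PRAMEF genes, which passed this filter only through the KDM4B-labelled libraries, so their calls were set by the filter and support nothing. The same holds for the read-through MAGEA10-MAGEA5, which was also called higher there. All 9 rises and 5 of the 9 falls were called under both scales, and the other 4 falls, of GAGE12G, GAGE2D, GAGE2B and MAGEA12, were not called after scaling.

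**Figure D1:**
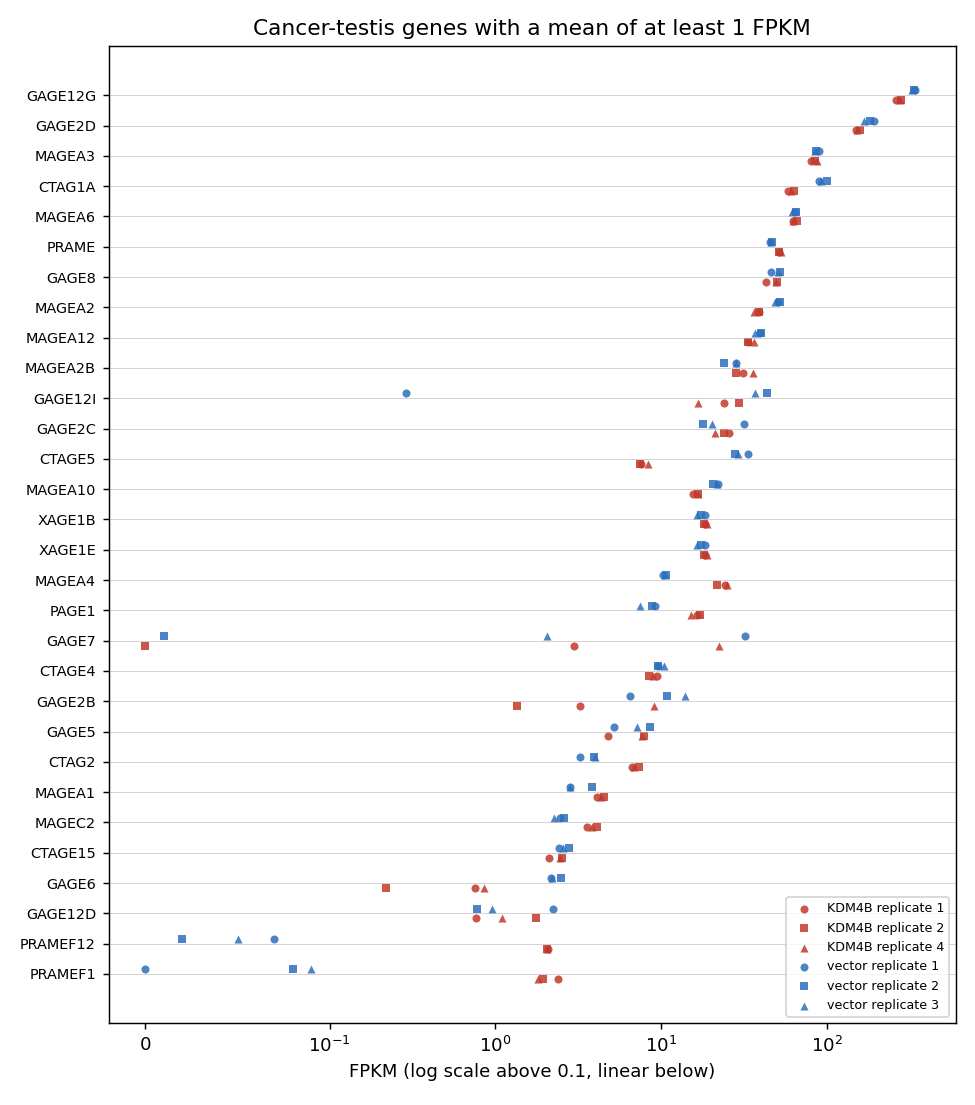
FPKM of the 30 cancer-testis genes with a mean of at least 1 FPKM, 1 point per library, red for the KDM4B-labelled libraries and blue for the vector controls, on an axis that is logarithmic above 0.1 FPKM. PRAMEF1 and PRAMEF12 show the widest gap between groups, MAGEA4, PAGE1 and CTAG2 are higher and CTAGE5 is lower in the red libraries, and GAGE7 and GAGE12I scatter within both groups.

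**Figure D2:**
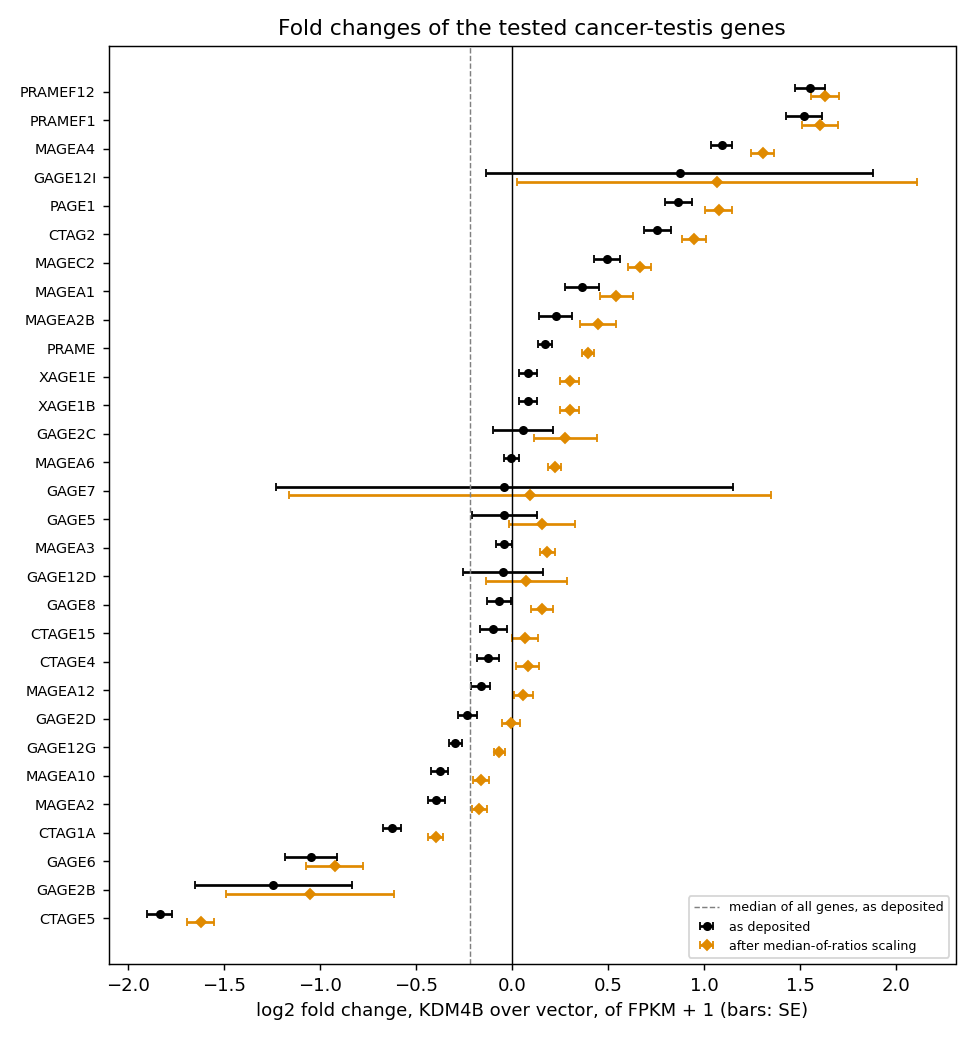
Log2 fold changes of the 30 tested genes on the log2(FPKM + 1) scale, KDM4B over vector, with standard errors, as deposited (black) and after median-of-ratios scaling (orange); the dashed line is the median of all tested genes as deposited, -0.22. Scaling moves the genes to the right together, and 9 of them cross 0.

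Among the MAGE-A genes, MAGEA4 rose most. It measured 24.53, 21.73 and 24.99 FPKM in the KDM4B-labelled libraries and 10.35, 10.80 and 10.64 FPKM in the vector controls. The groups did not overlap, and the log2 fold change was 1.09 (SE 0.05; limma, adjusted p = 1.14e-08), or 1.31 after scaling. MAGEA1, the first described tumour antigen of this kind, measured 4.12, 4.51 and 4.34 FPKM against 2.83, 3.82 and 2.83 FPKM, a log2 fold change of 0.36 (SE 0.09; adjusted p = 0.00263) and of 0.54 after scaling. On chromosome X but outside the MAGE-A group, MAGEC2, a partner of the ligase TRIM28, rose from 2.47, 2.59 and 2.27 FPKM to 3.60, 4.11 and 3.84 FPKM (log2 fold change 0.49, SE 0.07; adjusted p = 3.63e-05). These 3 rises kept their call when each library was left out in turn.

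MAGEA10 and MAGEA2 fell. MAGEA10 measured 15.58, 16.78 and 16.72 FPKM against 21.98, 20.74 and 21.88 FPKM, without overlap, and its log2 fold change was -0.38 (SE 0.05; adjusted p = 1.66e-05), or -0.16 after scaling. MAGEA2 measured 38.86, 39.22 and 36.53 FPKM against 50.60, 52.08 and 48.77 FPKM (log2 fold change -0.39, SE 0.04; -0.17 after scaling). Its copy MAGEA2B stood at 31.12, 28.24 and 36.19 FPKM against 28.50, 23.99 and 28.49 FPKM, so the groups overlapped, and its rise of 0.23 (adjusted p = 0.03) was not called without KDM4B replicate 1 or 4 (adjusted p = 0.0536 and 0.116) or vector replicate 2 (0.129). The 2 copies are nearly identical and may share reads, and the sources used here do not say how such reads were divided. Their sum was 70.1 ± 2.63 FPKM in the KDM4B-labelled libraries and 77.5 ± 1.53 FPKM in the vector controls (SD, n = 3 each).

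MAGEA3 and MAGEA6, the pair whose proteins turn TRIM28 against the kinase AMPK, showed little difference as deposited. MAGEA3 measured 80.82, 85.19 and 87.90 FPKM against 89.58, 86.35 and 85.39 FPKM, and MAGEA6 62.79, 65.94 and 63.04 FPKM against 64.34, 65.65 and 62.22 FPKM. Their log2 fold changes of -0.04 and -0.0033 did not pass the test as deposited (adjusted p = 0.369 and 0.943) and were 0.18 and 0.22 after scaling, where both passed (0.00136 and 0.000149). MAGEA12 measured 33.56, 33.38 and 36.69 FPKM against 39.64, 39.97 and 36.77 FPKM, without overlap. Its log2 fold change was -0.16 as deposited (adjusted p = 0.0103) and stood at 0.06 after scaling (adjusted p = 0.315). The low MAGEA8 measured 0.74, 0.54 and 1.03 FPKM against 0.44, 0.41 and 0.55 FPKM, with overlap. The read-through MAGEA10-MAGEA5 stood at 0.17, 0.18 and 0.22 FPKM against 0.11, 0 and 0 FPKM, and MAGEC1 at 0.23 to 0.31 FPKM against 0.20 FPKM in each vector control.

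Start sites show how alike some of these copies are. The 250 bases before the transcript start, from RefSeq on GRCh38.p14, are printed for the rising MAGEA4 and MAGEC2 and for MAGEA3 and MAGEA6, which may share reads. MAGEA3 (chrX:152698544-152698793, plus strand) and MAGEA6 (chrX:152769690-152769939, minus strand) matched at 250 of 250 bases. MAGEA4 (chrX:151912224-151912473, plus strand) is the first of 5 listed starts, and MAGEC2 lies at chrX:142205291-142205540, minus strand. Capitals mark CCGGAA, the core of many ETS factor sites, searched on both strands.
MAGEA4: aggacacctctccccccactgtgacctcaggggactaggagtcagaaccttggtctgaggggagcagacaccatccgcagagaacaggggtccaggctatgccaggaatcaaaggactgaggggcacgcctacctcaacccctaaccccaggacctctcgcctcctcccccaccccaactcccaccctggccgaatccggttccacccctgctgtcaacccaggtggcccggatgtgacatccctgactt
MAGEC2: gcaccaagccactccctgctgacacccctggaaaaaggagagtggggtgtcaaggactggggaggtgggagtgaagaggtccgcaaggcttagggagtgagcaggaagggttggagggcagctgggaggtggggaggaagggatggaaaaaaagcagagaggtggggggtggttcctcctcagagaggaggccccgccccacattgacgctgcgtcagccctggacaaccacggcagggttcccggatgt
MAGEA3: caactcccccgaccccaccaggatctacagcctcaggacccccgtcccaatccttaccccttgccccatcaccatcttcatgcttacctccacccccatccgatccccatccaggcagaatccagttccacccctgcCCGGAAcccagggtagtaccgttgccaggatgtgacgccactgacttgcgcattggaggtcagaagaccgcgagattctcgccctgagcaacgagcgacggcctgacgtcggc
MAGEA6: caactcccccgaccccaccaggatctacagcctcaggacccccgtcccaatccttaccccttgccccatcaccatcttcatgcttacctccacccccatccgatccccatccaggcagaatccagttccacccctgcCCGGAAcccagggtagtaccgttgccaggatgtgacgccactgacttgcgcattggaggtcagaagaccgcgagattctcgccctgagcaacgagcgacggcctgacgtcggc
Of 15 MAGE-A start windows 2 held CCGGAA, those of MAGEA3 and MAGEA6, against 14.5% of 35116 windows of the same length over all genes. The MAGE-A windows held 5 to 18 CpG sites, with a median of 11, which is also the median over all genes.

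GAGE genes gave the highest levels of all, and their single copies cannot be told apart well. GAGE proteins are small, acidic and nearly identical to each other. GAGE12G measured 262.94, 282.89 and 276.26 FPKM in the KDM4B-labelled libraries and 343.10, 335.54 and 329.53 FPKM in the vector controls. Its log2 fold change was -0.29 (SE 0.04; limma, adjusted p = 1.79e-05), and -0.07 after scaling, where the call was lost (0.0741). GAGE2D measured 150.78, 158.97 and 152.57 FPKM against 193.97, 182.45 and 167.77 FPKM, -0.23 on the log2 scale as deposited and -0.0039 after scaling. The split among copies was steady for these 2: GAGE12G held 49.6% to 50.8% of the summed GAGE FPKM in the KDM4B-labelled libraries and 51.2% to 52.1% in the vector controls. Over all 13 GAGE genes the sum was 545 ± 21.5 FPKM against 650 ± 16.2 FPKM (SD, n = 3 each).

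Other GAGE copies jumped between libraries of the same group. GAGE7 measured 3.00, 0 and 22.49 FPKM in the KDM4B-labelled libraries and 32.23, 0.01 and 2.04 FPKM in the vector controls. GAGE12I did the reverse in vector replicate 1, at 0.29 FPKM, against 43.51 and 37.10 FPKM in vector replicates 2 and 3 and 23.97, 29.42 and 16.75 FPKM in the KDM4B-labelled libraries. Summed, the pair gave 26.97, 29.42 and 39.24 FPKM against 32.52, 43.52 and 39.14 FPKM, a range that overlaps and is far narrower than that of either copy. GAGE12I showed a log2 fold change of 0.87 (adjusted p = 0.446) with all libraries and of -0.79 (adjusted p = 0.00147) without vector replicate 1, so no direction is given for it. GAGE6 measured 0.76, 0.22 and 0.85 FPKM against 2.16, 2.48 and 2.19 FPKM (log2 fold change -1.05, SE 0.14; adjusted p = 2.78e-05). GAGE2B measured 3.26, 1.35 and 9.13 FPKM against 6.55, 10.81 and 14.05 FPKM, a fall of -1.24 on the log2 scale (SE 0.41; adjusted p = 0.0164) that was not called after scaling (-1.05; 0.0543), without KDM4B replicate 2 (-0.75; 0.0621) or without vector replicate 3 (-1.02; 0.0706). GAGE8 measured 43.05, 50.15 and 49.51 FPKM against 46.04, 52.60 and 50.88 FPKM, and GAGE2C 25.66, 24.18 and 21.08 FPKM against 31.56, 17.85 and 20.39 FPKM. GAGE5 measured 4.78, 7.86 and 7.69 FPKM against 5.19, 8.56 and 7.19 FPKM, and GAGE12D 0.77, 1.76 and 1.10 FPKM against 2.23, 0.78 and 0.96 FPKM. These 4 copies overlapped between groups and did not pass the test as deposited; GAGE8 was called higher after scaling (0.16; adjusted p = 0.0314) and GAGE2C without vector replicate 1 (0.29; 0.00705). GAGE4 was listed at 0 in all libraries except KDM4B replicate 1 (0.86 FPKM).

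**Figure D3:**
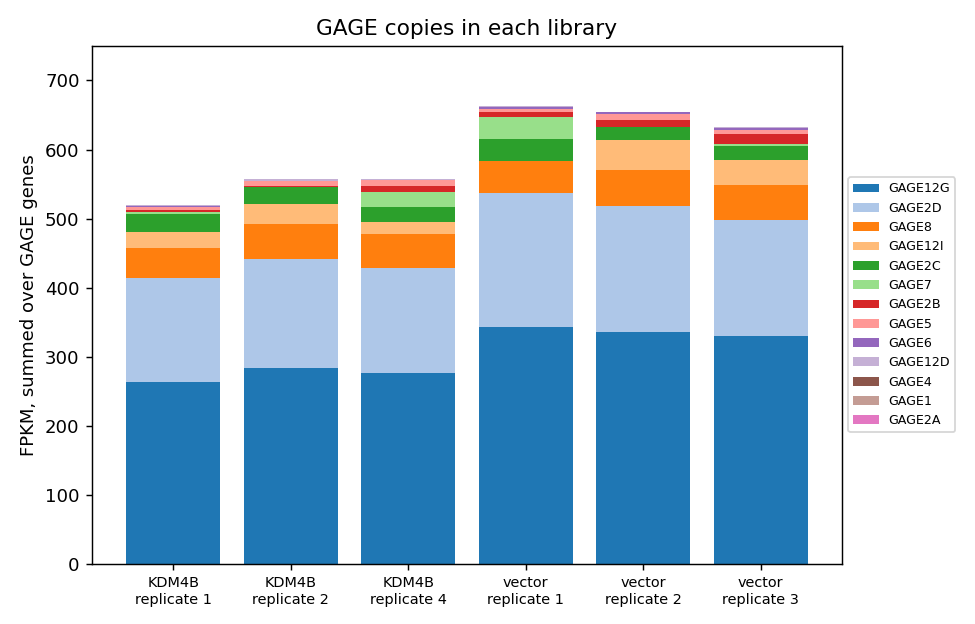
FPKM of the 13 GAGE genes stacked by library, bars starting at 0. The totals are 519.88 to 557.50 FPKM in the KDM4B-labelled libraries and 632.17 to 663.62 FPKM in the vector controls, while GAGE7 and GAGE12I trade places among libraries of 1 group.

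PAGE1, a relative of the GAGE genes, rose. It measured 16.44, 17.13 and 15.27 FPKM in the KDM4B-labelled libraries and 9.25, 8.81 and 7.43 FPKM in the vector controls. The log2 fold change was 0.87 (SE 0.07; limma, adjusted p = 6.57e-07), or 1.08 after scaling, with no overlap. The other 4 PAGE genes had means under 0.1 FPKM. XAGE1E and XAGE1B, which encode the same small antigen, had the same deposited value in every library. They are 1 measurement, though both are entered in the counts of tested and called genes, such as the 14 called higher after scaling. They measured 18.45, 18.32 and 18.86 FPKM against 18.53, 17.38 and 16.49 FPKM. Their log2 fold change was 0.08 (adjusted p = 0.138), and 0.30 after scaling, where it was called (0.000327), as it was without vector replicate 1 (0.12; 0.0399). The sequence before the PAGE1 start (chrX:49695985-49696234, minus strand) is shown, with CACGTG, the E-box, in capitals. This motif was found in 5 of 6 PAGE start windows and in 6.34% of windows over all genes. It was also found in 4 of 5 CTAGE windows, and PAGE4 was counted more than once among the PAGE windows.
PAGE1: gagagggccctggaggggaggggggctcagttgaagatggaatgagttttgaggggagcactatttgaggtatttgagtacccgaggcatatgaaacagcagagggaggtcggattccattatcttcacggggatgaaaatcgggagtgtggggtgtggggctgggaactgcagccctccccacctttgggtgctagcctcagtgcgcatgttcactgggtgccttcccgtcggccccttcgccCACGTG
A match of letters is a description and says nothing of a factor bound there.

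The 2 CTAG genes moved in opposite directions. CTAG1A, which encodes the antigen NY-ESO-1, measured 58.42, 63.36 and 60.90 FPKM in the KDM4B-labelled libraries and 90.54, 99.92 and 92.48 FPKM in the vector controls. Every KDM4B value lay below every vector value, and the log2 fold change was -0.62 (SE 0.05; limma, adjusted p = 2.79e-07), or -0.40 after scaling. CTAG2, which encodes the related LAGE-1, measured 6.67, 7.35 and 6.91 FPKM against 3.26, 3.93 and 3.99 FPKM, a rise of 0.76 (SE 0.07; adjusted p = 1.58e-06) and of 0.95 after scaling. Reads of the 1 CTAG2 splicing event deposited, a retained intron, were 45, 51 and 71 against 9, 19 and 14, without overlap. That event was not part of a test.

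PRAME itself rose by a small, even step. PRAME is a substrate receptor of a CUL2 ubiquitin ligase and a repressor of retinoic acid receptor signalling. It measured 51.55, 51.61 and 52.83 FPKM in the KDM4B-labelled libraries and 45.50, 46.71 and 45.92 FPKM in the vector controls, with no overlap. The log2 fold change was 0.17 (SE 0.04; limma, adjusted p = 0.000964), and 0.40 after scaling. In read counts, the most-read skipped-exon event of PRAME had 375, 384 and 357 reads against 325, 318 and 309, a log2 fold change of 0.45 (edgeR quasi-likelihood test, adjusted p = 7.32e-05). When every skipped-exon event was tested, a PRAME event with 88, 53 and 82 reads against 78, 97 and 85 was not called (log2 fold change 0.0063, edgeR, adjusted p = 0.983). The other skipped-exon events of PRAME were called higher. The 2 PRAME retained-intron events overlapped between groups, at 290, 306 and 319 against 339, 277 and 315 reads for the first. These reads are not scaled, and skipped-exon totals were lower in the KDM4B-labelled libraries, so the overlap does not show an equal level. The PRAME partner RARA, the retinoic acid receptor alpha, rose from 5.18 ± 0.15 to 7.81 ± 0.45 FPKM (SD, n = 3 each; log2 fold change 0.51; limma, adjusted p = 5.62e-06).

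The PRAMEF genes separated the groups most clearly. They are primate-expanded relatives of PRAME, lie together on chromosome 1 and are known for transcription in early cleavage-stage embryos. PRAMEF12 measured 2.09, 2.06 and 2.04 FPKM in the KDM4B-labelled libraries and 0.07, 0.02 and 0.05 FPKM in the vector controls. PRAMEF1 measured 2.38, 1.93 and 1.81 FPKM against 0, 0.08 and 0.09 FPKM. PRAMEF14 measured 1.28, 1.12 and 1.53 FPKM against 0.02, 0.07 and 0.08 FPKM. In all 3 genes the lowest KDM4B value lay far above the highest vector value. The log2 fold changes of PRAMEF12 and PRAMEF1 on the log2(FPKM + 1) scale, which understates changes of low genes, were 1.55 (SE 0.08; limma, adjusted p = 1.25e-08) and 1.52 (SE 0.09; adjusted p = 6.35e-08), and 3.90 and 3.82 with a pseudocount of 0.1. These 2 passed the filter on the mean only through the KDM4B-labelled libraries, so their calls support nothing.

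Lower members of the cluster followed the same pattern. PRAMEF8 measured 0.91, 0.84 and 1.05 FPKM against 0, 0 and 0.05 FPKM, PRAMEF2 0.89, 0.74 and 0.94 FPKM against 0, 0.04 and 0.05 FPKM, and PRAMEF7 0.58, 0.89 and 0.62 FPKM against 0.03, 0 and 0 FPKM. PRAMEF6, PRAMEF11, PRAMEF15, PRAMEF10 and PRAMEF4 lay between 0.09 and 0.45 FPKM in the KDM4B-labelled libraries and at 0.07 FPKM or less in the vector controls. PRAMEF5 was listed at 0 in KDM4B replicate 1, with 0.28 and 0.21 FPKM in the other two, and PRAMEF20 at 0 except in KDM4B replicate 4 (0.05 FPKM). Of 14 PRAMEF genes 12 were higher without overlap of the groups, where 13.1% of all 19571 genes were, and the sum over the 14 was 9.29, 8.74 and 9.47 FPKM against 0.14, 0.28 and 0.45 FPKM. Near-identical PRAMEF copies may share reads, which would make single values less certain than the family sum. In bulk RNA a large rise in a few cells and a small rise in all cells cannot be told apart.

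Among the listed genes of other families in and around the cluster, none was higher without overlap of the groups. Within the cluster, the gene listed as LOC400736, named PRAMEF13 in RefSeq, measured 0.57, 0.95 and 1.02 FPKM against 0 in each vector control. HNRNPCL1, HNRNPCL2 and HNRNPCL3 (listed as LOC649330), which are not PRAME relatives, were at 0.14 FPKM or less everywhere and overlapped between groups. HNRNPCL1 stood at 0, 0.14 and 0.04 FPKM against 0 in each vector control. Values so near 0 do not show whether the HNRNPCL genes rose. On the flanks, DHRS3, a retinal reductase, fell from 10.16, 9.68 and 11.20 FPKM to 1.91, 2.31 and 2.56 FPKM, PRDM2 was lower without overlap, and KAZN overlapped. Ribosomal RNA differed between the groups along with PRAMEF, at 8.14% to 10.5% against 0.144% to 0.473% of the FPKM sum, and its part in the PRAMEF values was not tested. Without vector replicate 1, which had the highest vector share, the sums of PRAMEF in the vector controls were 0.28 and 0.45 FPKM. The 122 olfactory receptor genes in the table summed to 11.36 to 12.17 FPKM in the KDM4B-labelled libraries and to 16.74 to 19.47 FPKM in the vector controls. Above 0 were 55, 55 and 52 of them against 52, 54 and 58. Which receptors made up the sums was not examined, so the sums do not show how silent genes behaved. Their relation to the PRAMEF values was not tested.

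**Figure D4:**
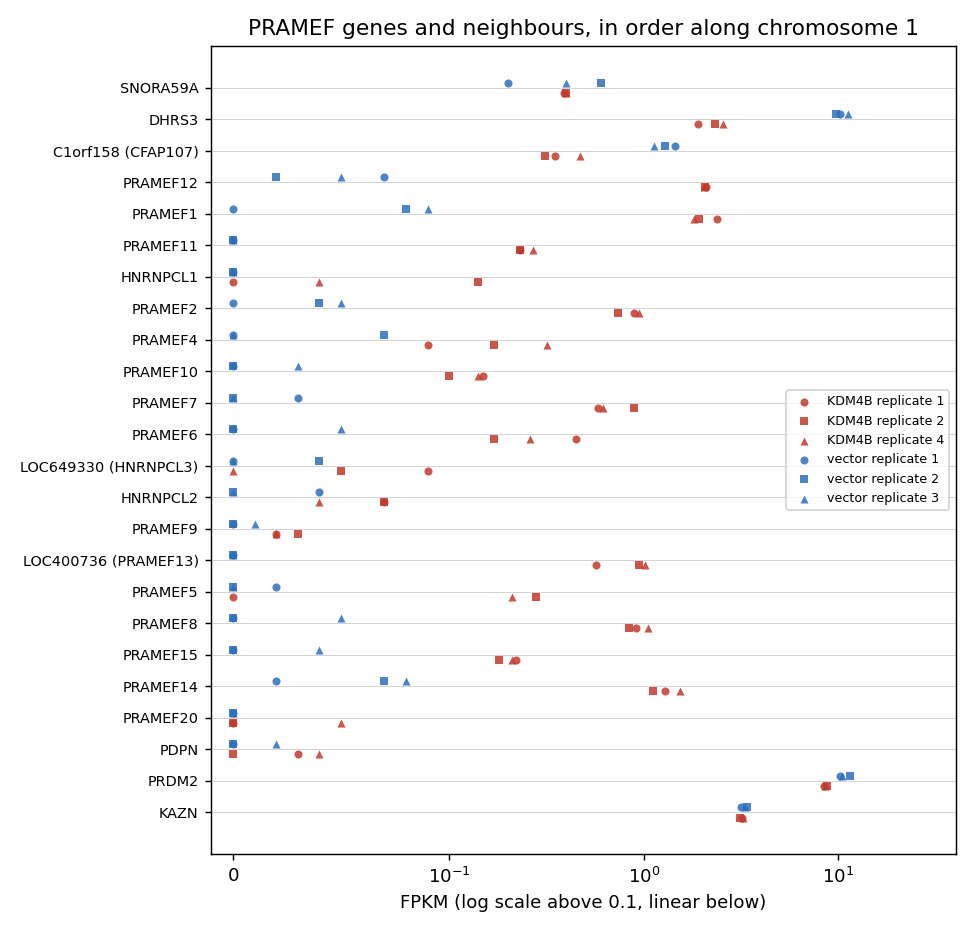
FPKM of the 14 PRAMEF genes and the genes between and around them, in their RefSeq order along chromosome 1, 1 point per library, on an axis that is logarithmic above 0.1 FPKM. The red points of most PRAMEF genes lie between 0.1 and 2.38 FPKM with the blue points at or near 0, and the neighbours DHRS3, C1orf158 and PRDM2 run the other way.

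The PRAMEF start windows are poor in CpG sites, and those printed resemble each other. The windows of 5 members, not in each case those with the highest values, are printed with RefSeq starts on GRCh38.p14. They are PRAMEF1 (chr1:12791147-12791396, plus strand), PRAMEF14 (chr1:13347135-13347384, minus strand), PRAMEF12 (chr1:12773488-12773737, plus strand), PRAMEF7 (chr1:12916360-12916609, plus strand) and PRAMEF8 (chr1:13285138-13285387, minus strand). Capitals mark the letters TATAAA, searched on both strands. Counted from the start, they begin at position -30 in PRAMEF1 and, on the opposite strand and so printed as TTTATA, at -196 in PRAMEF12; a window all in lower case holds none.
PRAMEF1: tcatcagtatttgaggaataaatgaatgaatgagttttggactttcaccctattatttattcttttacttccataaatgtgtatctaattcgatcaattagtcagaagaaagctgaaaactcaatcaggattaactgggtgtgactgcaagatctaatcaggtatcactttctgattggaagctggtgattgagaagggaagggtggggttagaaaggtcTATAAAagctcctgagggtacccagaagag
PRAMEF14: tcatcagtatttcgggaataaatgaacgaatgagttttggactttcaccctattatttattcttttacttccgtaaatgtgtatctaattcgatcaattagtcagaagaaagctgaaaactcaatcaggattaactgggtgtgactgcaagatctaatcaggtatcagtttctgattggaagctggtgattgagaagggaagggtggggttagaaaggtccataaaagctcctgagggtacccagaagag
PRAMEF12: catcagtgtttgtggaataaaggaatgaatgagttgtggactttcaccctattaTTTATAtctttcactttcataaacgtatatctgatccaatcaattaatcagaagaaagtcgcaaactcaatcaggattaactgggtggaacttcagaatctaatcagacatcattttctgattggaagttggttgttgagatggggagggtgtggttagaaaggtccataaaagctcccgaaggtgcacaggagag
PRAMEF7: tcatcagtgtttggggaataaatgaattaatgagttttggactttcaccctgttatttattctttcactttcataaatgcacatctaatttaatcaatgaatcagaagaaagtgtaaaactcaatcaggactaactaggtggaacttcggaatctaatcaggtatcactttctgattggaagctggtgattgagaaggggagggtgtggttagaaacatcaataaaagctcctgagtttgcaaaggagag
PRAMEF8: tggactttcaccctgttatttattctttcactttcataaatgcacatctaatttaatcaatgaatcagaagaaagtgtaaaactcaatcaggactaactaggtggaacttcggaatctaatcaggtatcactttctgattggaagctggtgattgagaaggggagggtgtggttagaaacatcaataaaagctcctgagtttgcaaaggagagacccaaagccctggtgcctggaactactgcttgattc
Compared position by position without gaps, PRAMEF1 matched PRAMEF14 at 244 of 250 bases, PRAMEF7 at 215 and PRAMEF12 at 177. The start listed for PRAMEF8 differs, and moved by 37 bases its window matched that of PRAMEF7 at 213 of the 213 bases that overlap and that of PRAMEF1 at 181. The window printed for PRAMEF1 is the first of 2 listed for it. PRAMEF2 is not printed, although its KDM4B-labelled mean of 0.86 FPKM lies above the 0.70 FPKM of PRAMEF7. Without gaps or moving, its window matched PRAMEF1 at 66, PRAMEF12 at 62 and PRAMEF7 at 65 of 250 bases. Moved windows were compared only for the printed members, so the resemblance is stated for those alone. TATAAA was found in 3 of 14 PRAMEF windows and in 10.7% of windows over all genes. The PRAMEF windows held 1 to 5 CpG sites, with a median of 3, against a median of 11 over all genes and 8 in the 5 GAGE windows. No conclusion on a bound factor follows from these letters.

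Other transcripts of the cleavage-stage embryo were then read from the same table. The list of 21 genes, of which 20 were in the table, was drawn up after the PRAMEF values were seen and was not tested as a list. ZSCAN4, a marker of that stage, measured 0.36, 0.55 and 0.25 FPKM in the KDM4B-labelled libraries and 0.02, 0 and 0 FPKM in the vector controls. TRIM43 measured 1.14, 1.38 and 1.27 FPKM against 0.03, 0.08 and 0.05 FPKM, and TRIM49 1.15, 1.32 and 1.13 FPKM against 0.10, 0.14 and 0.07 FPKM. MBD3L2, from a methyl-binding family without the binding domain, measured 2.12, 1.66 and 2.44 FPKM against 0, 0.23 and 0 FPKM. Of the 20 genes 12 were higher without overlap, including TRIM43B, TRIM48, TRIM51, MBD3L3, RFPL4A, RFPL4B, LEUTX and SLC34A2, against 13.1% of all genes. DUXA went the other way, from 5.79, 6.42 and 7.0 FPKM to 2.25, 2.44 and 2.34 FPKM, and RFPL2 and KHDC1L overlapped. DUX4, the homeobox factor known to activate this programme, was listed at 0 in all libraries except KDM4B replicate 4 (0.17 FPKM), and its repeated copies are hard to map.

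**Figure D5:**
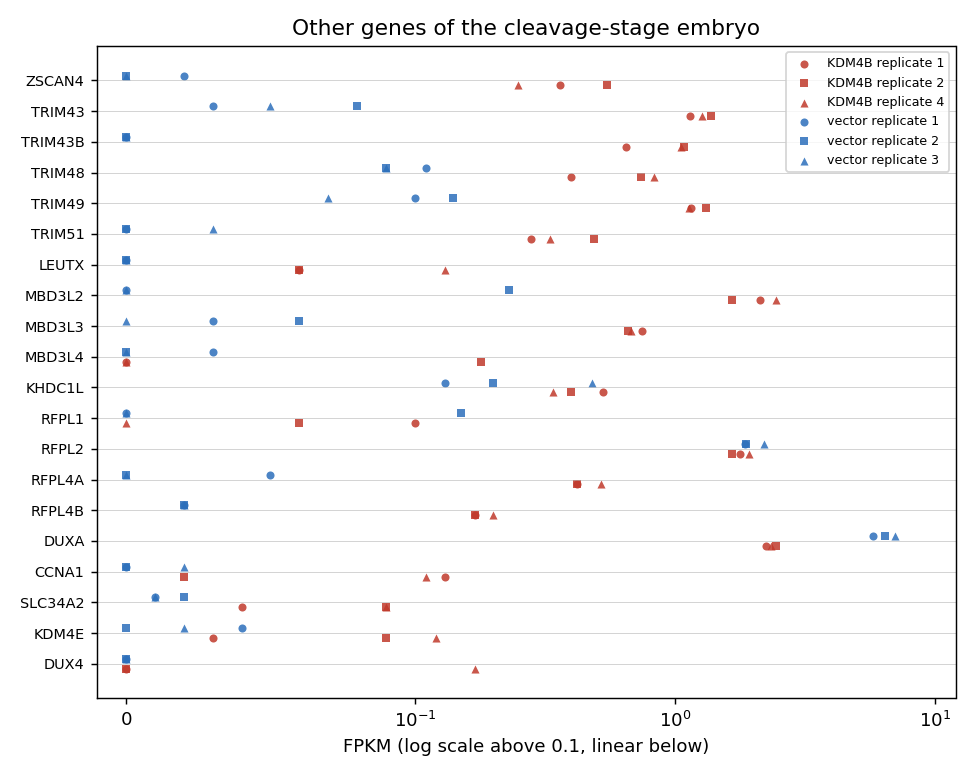
FPKM of 20 further genes known from the cleavage-stage embryo, 1 point per library, red for the KDM4B-labelled libraries and blue for vector, on an axis that is logarithmic above 0.1 FPKM. In 12 of the 20 genes every red point lies to the right of every blue one, and DUXA runs the other way at 2.25 to 2.44 against 5.79 to 7.0 FPKM.

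SSX genes, fusion partners in synovial sarcoma, were low in both groups. The 10 SSX genes summed to 0.71 ± 0.09 FPKM in the KDM4B-labelled libraries and 0.80 ± 0.22 FPKM in the vector controls (SD, n = 3 each), and all 10 overlapped between groups. SSX2 measured 0.23, 0.15 and 0.09 FPKM against 0, 0.18 and 0.32 FPKM, SSX2B 0.22, 0.31 and 0.28 FPKM against 0.29, 0 and 0 FPKM, and SSX4B 0.20 FPKM in each KDM4B-labelled library against 0.47, 0.15 and 0.28 FPKM.

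CTAGE5 fell further than any other tested gene in this set. It is listed in RefSeq under MIA2, on chromosome 14, and encodes a protein of endoplasmic reticulum exit sites that helps large cargo leave. It measured 7.55, 7.46 and 8.37 FPKM in the KDM4B-labelled libraries and 33.61, 28.15 and 29.36 FPKM in the vector controls. The log2 fold change was -1.83 (SE 0.07; limma, adjusted p = 8.8e-10), or -1.62 after scaling. Its most-read skipped-exon event had 102, 94 and 115 reads against 472, 363 and 387, a log2 fold change of -1.75 (edgeR quasi-likelihood test, adjusted p = 1.45e-15), and 10 of its 11 deposited splicing events were lower without overlap. The related CTAGE4 measured 9.52, 8.43 and 9.02 FPKM against 9.59, 9.59 and 10.49 FPKM (log2 fold change -0.12; adjusted p = 0.0629; 0.08 after scaling), a difference called only without KDM4B replicate 1 (-0.16; 0.0344). CTAGE15 measured 2.12, 2.52 and 2.47 FPKM against 2.43, 2.79 and 2.58 FPKM and did not pass (-0.10; 0.248; 0.07 after scaling), and CTAGE7P, CTAGE6 and CTAGE9 lay between 0.05 and 0.79 FPKM.

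Read counts were available for few of the genes. There were 40 splicing events in 11 of the 79 genes, and 6 genes had a skipped-exon event with enough reads for the edgeR test over 8931 genes. Of these, PRAME was called higher and CTAGE5 lower, where 22.4% and 22.2% of all genes were. MAGEA10 had 288, 247 and 251 reads against 365, 283 and 323, and its log2 fold change of -0.08 after TMM normalization was not called (adjusted p = 0.547), while its fall in FPKM was. MAGEA1, MAGEA3 and MAGEA12 were not called (log2 fold changes 0.37, 0.20 and 0.20; adjusted p = 0.376, 0.47 and 0.409). No splicing event of a GAGE gene reached the filter, and the deposited tables list none for MAGEA4, PAGE1, MAGEC2 or the PRAMEF genes.

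Related genes gave a setting for these values, to be read against the 13.4% of all tested genes called higher and 60.3% called lower as deposited, and 32.5% and 35.5% after scaling. Of 8 tested type II MAGE genes, broadly expressed relatives, 0 rose and 3 fell as deposited, and 5 rose and 1 fell after scaling. MAGED4 and MAGED4B had the same value in every library and are 1 measurement, though both are entered in these counts. MAGED2 fell from 56.4 ± 0.68 to 44.8 ± 1.29 FPKM. Of 29 other cancer-testis genes 4 rose and 17 fell (9 and 11 after scaling), shares close to those of all genes as deposited. NXF2, an RNA export factor, fell from 17.7 ± 0.53 to 8.31 ± 0.43 FPKM and the ATPase ATAD2 from 35.9 ± 1.16 to 20.5 ± 0.98 FPKM (limma, adjusted p = 9.98e-09 and 4.24e-08). POTEF fell from 6.65 ± 0.48 to 1.65 ± 0.34 FPKM and the kinetochore gene NUF2 from 22.1 ± 0.74 to 15.0 ± 0.08 FPKM. All 4 of these named falls were called after scaling too. Other listed genes went the opposite way without overlap and are named after their values were seen. VCX went from 2.67 ± 0.395 to 4.97 ± 0.528 FPKM, VCX3A from 0.85 ± 0.09 to 1.94 ± 0.186 FPKM and KDM5B from 22.9 ± 1.28 to 27.7 ± 1.01 FPKM.

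Among 19 partner proteins of MAGE and PRAME 2 rose and 10 fell (9 and 6 after scaling), against the same shares of all genes. The 2 that rose were RARA and, named after its value was seen, the cullin CUL1, from 21.7 ± 0.39 to 24.8 ± 0.62 FPKM (log2 fold change 0.18; limma, adjusted p = 0.00172). The ligase TRIM27 fell from 43.5 ± 1.04 to 28.7 ± 0.80 FPKM and PRKAA1, the AMPK subunit that the MAGE-A3/6 ligase degrades, from 40.8 ± 2.63 to 28.3 ± 1.15 FPKM. DCAF12, a ligase receptor for MAGE-A proteins, fell from 38.3 ± 0.23 to 27.8 ± 0.50 FPKM, and NSMCE1, a subunit of the SMC5/6 complex, fell from 78.6 ± 0.70 to 57.9 ± 2.17 FPKM. Of 35 genes listed for the regulation of DNA and histone H3 lysine 9 methylation 4 rose and 15 fell (16 and 7 after scaling). The list also holds EZH2, CTCF and the transcription factors SP1 and ETS2, so its counts are not of such regulators alone. Fewer of the listed genes fell than among all genes as deposited, a difference that was not tested. The 4 that rose, named after their values were seen, were UHRF1, SUV39H1, EHMT1 and HDAC1, with log2 fold changes of 0.17, 0.14, 0.15 and 0.11 (limma, adjusted p = 0.0117, 0.0332, 0.00794 and 0.0109). EZH2, the methyltransferase for lysine 27 of histone H3, fell from 24.5 ± 1.23 to 11.0 ± 0.79 FPKM (adjusted p = 1.48e-08) and the transcription factor SP1 from 17.1 ± 0.53 to 11.6 ± 0.37 FPKM. The chromatin protein CBX5 (heterochromatin protein 1 alpha) fell from 34.6 ± 1.06 to 22.2 ± 0.35 FPKM and DAXX, a histone H3.3 chaperone, from 37.4 ± 1.29 to 21.1 ± 0.83 FPKM (limma, adjusted p = 9.45e-08 and 2.64e-08). MPHOSPH8, a reader in the HUSH silencing complex, fell from 16.0 ± 0.55 to 11.9 ± 0.79 FPKM, and CTCF from 22.1 ± 0.25 to 16.5 ± 0.77 FPKM. DNMT1, the maintenance DNA methyltransferase, measured 37.3 ± 1.67 against 35.9 ± 1.74 FPKM with overlap (log2 fold change 0.05; adjusted p = 0.328), and was called higher after scaling (0.28; 0.000358). SD values are over n = 3 libraries each.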

How the data were processed

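Total RNA of 6 LNCaP libraries was sequenced. The authors deposited FPKM values per gene, per the file headers, and read counts per splicing event, whole numbers that were not normalized. Per the submitters' processing notes, HISAT, StringTie and Cufflinks were used, with GRCh38 and hg38 as builds; which tool did what, the annotation and the handling of reads shared by copies: not given in the sources used here. Depth in reads is not given for the FPKM. The step of 1 read in low genes put relative depth between 0.988 and 1.02. Only genes whose steps were nearly equal in all libraries were used, so this range cannot show a difference in depth. Scaling divides each library by its median ratio to a reference over genes. Skipped-exon counts, which share reads between events, summed to 14212396 to 17021204 per library.

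Genes with a mean of at least 1 FPKM were tested with limma 3.58.1 (R 4.3.3, mean-variance trend) on log2(FPKM + 1), two-sided, at an adjusted p of 0.05. The most-read skipped-exon event per gene, with at least 10 reads in 3 libraries, was tested with edgeR 4.0.16, with DESeq2 1.42.0 as an alternative. Replicate libraries were not duplicates of each other (chi-square per degree of freedom 2.42 to 2.96 within groups and 28.5 to 33.8 between them). Both tests were checked on simulated data. Of 19571 gene IDs 19400 were in the RefSeq table, as were 70 of the 79 members, and 54 had a start window.

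Named genes were all members with a mean of at least 0.1 FPKM and up to 6 genes of each list with the lowest p, with KDM4B and DNMT1 whatever they showed; some genes that the rule would name are not reported here, and Y-linked genes were not named. MAGEA11, PAGE4, PRAMEF10, PRAMEF5 and PRAMEF20, with lower means, were named after their values were seen. Members and lists were chosen with earlier results of these data known, and the cleavage-stage list, the neighbours of PRAMEF and the motifs after the values were seen.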

Additional observations from a re-analysis of the deposited data

How the results depend on the processing

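Called higher were 9 of the tested members, and 14 after median-of-ratios scaling, 19 with the filter at a mean of 0.1 FPKM, 18 without a filter and 25 with scaling and the lower filter together, a setting chosen after seeing the data. Called lower were 9, and 5 after scaling with either filter. Leaving out 1 library gave 6 to 12 higher and 8 to 10 lower; without any 1 KDM4B library PRAMEF1 and PRAMEF12 fell under the filter. The splicing-event reads gave 1 higher and 1 lower in every setting, DESeq2 included, and 1 to 1 without each library. With scaling, under either filter, the sign turned for MAGEA3 (0.18), MAGEA6 (0.22), GAGE8 (0.16), MAGEA12 (0.0597), CTAGE4 (0.0824), GAGE5 (0.16), GAGE7 (0.10), CTAGE15 (0.0668) and GAGE12D (0.075), and with scaling for NDNL2 (0.0251). Without KDM4B replicate 1 it turned for MAGEA6 (0.0093), GAGE8 (0.0019), GAGE2C (-0.0007), GAGE5 (0.16), GAGE7 (0.05) and GAGE12D (0.10), without KDM4B replicate 2 for GAGE7 (1.05) and without KDM4B replicate 4 for MAGEA6 (0.0064). Without vector replicate 1 it turned for GAGE12I (-0.79), GAGE7 (1.38) and GAGE12D (0.22), without vector replicate 2 for MAGEA6 (0.0142), GAGE2C (-0.10) and GAGE5 (0.10), and without vector replicate 3 for GAGE2C (-0.0123). Leaving out 1 library, the opposite ends of the range were -0.0255 for MAGEA6, -0.1219 for GAGE8, 0.2908 for GAGE2C, 1.7634 for GAGE12I, -0.2129 for GAGE5, -1.2243 for GAGE7 and -0.2177 for GAGE12D. The cause was not tested. The call of MAGEA2B was also lost without a filter (adjusted p = 0.111) and without the variance trend (0.0555), and that of GAGE2B without a filter (0.0956). Only replicate numbers 1 and 2 occur in both groups, and deviations of same-numbered libraries correlated with r = -0.0238 and 0.135. Differently numbered libraries were not compared in this way, so whether the numbers pair the libraries is not shown. With the replicate block 10 members were called higher and 10 lower, with GAGE12I (1.86) and GAGE7 (-1.53) newly called. KDM4B replicate 4 and vector replicate 3 have no same-numbered partner, so this fold change rests on replicates 1 and 2 alone. For GAGE12I replicate 1 rose (23.97 against 0.29 FPKM) and replicate 2 fell (29.42 against 43.51 FPKM), so no direction is read from its call. Depth in reads is unknown for the FPKM, so values near 0 carry no interval, and 3 libraries a group limit the precision.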

Other observations

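Markers of other cell types were low, with exceptions. The 4 stromal markers in the table summed to 12.46, 16.46 and 12.90 FPKM in the KDM4B-labelled libraries against 6.47, 5.77 and 5.82 FPKM in the controls, and both tested members were called higher: ACTA2, smooth muscle actin, at 10.6 ± 2.30 against 3.53 ± 0.41 FPKM and COL1A1 at 2.92 ± 0.10 against 2.36 ± 0.06 FPKM (SD, n = 3 each; limma, adjusted p = 8.78e-07 and 0.00589). The immune markers CD68 and LYZ did not pass the test (adjusted p = 0.0504 and 0.095). The melanocyte gene PMEL measured 1.84 ± 0.24 against 2.35 ± 0.25 FPKM and was called lower (adjusted p = 0.0222), a call lost after scaling (0.369). The 2 endothelial markers in the table summed to 0.39 to 0.45 FPKM against 0.85 to 1.01 FPKM, and the 1 basal marker lay between 0.05 and 0.41 FPKM.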
